A study of Homo sapiens with 12 samples.

Results

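The cytosolic ribosomal protein genes were examined in MDA-MB-231 cells, an established human line from a triple-negative breast tumour, treated for 24 h with 1 of 3 compounds or with vehicle. Members were chosen by symbol alone: RPL or RPS, digits, at most one of the letters A, L or X, plus RPLP0, RPLP1, RPLP2 and RPSA. The rule used no measured value. It found 55 genes among the 11963 measured, which were 29 proteins of the large subunit, 20 of the small subunit, the stalk proteins RPLP1 and RPLP2, and the paralogs RPL3L, RPL10L, RPL39L and RPS27L. A further 26 symbols of the RefSeq gene table met the rule but had no probe set carrying a single gene symbol. Of these, 16 were named only on probe sets shared with other genes, among them RPL4, RPL5, RPL10, RPL13A and RPL23, and the other 10, among them RPLP0, RPSA and RPS27A, were not analysed here.

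RNA was measured on 12 Affymetrix arrays, with 3 arrays in each of 4 groups. One group received DMSO, the solvent, one rotenone, an inhibitor of mitochondrial complex I, one digoxin, a glycoside inhibitor of the sodium-potassium pump, and one manassantin, a plant lignan that the study's design text gives as manassantin A. The sample titles say digoxin where that text says digitoxin, so the identity of the glycoside was not settled, and doses and oxygen level were not given in the sources used here. All groups share the unmodified cell line. Whether replicate arrays stand for separate cultures is not stated, and p-values then cover only the spread among the samples at hand, which may be technical. The series' title places the work in tumour growth under hypoxia, autophagy and Hsp90.

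A ribosomal protein is a structural part of the ribosome, which translates every mRNA of the cell. Large subunit proteins surround the peptidyl transferase centre and the exit tunnel, small subunit proteins surround the decoding site, and the stalk proteins recruit the elongation factors. The mRNAs of these proteins are among the most abundant of a dividing cell, and most begin with a C followed by a run of pyrimidines, the 5′ terminal oligopyrimidine (TOP) tract, through which their translation responds to the kinase mTORC1 and the binding protein LARP1. Translation was not measured here. In bulk RNA, fewer cells of a type and less RNA per cell cannot be told apart.

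The TOP tract is the sequence feature that most of these genes share, and it is shown here for genes that the comparisons turn on. Of the 55 members, 47 matched an entry of the RefSeq promoter table (build GRCh38.p14). RPL3L, RPL7, RPL8, RPL23A, RPL30, RPL37, RPL39L and RPS15A had no entry. Each line gives 10 bases before the annotated transcription start and 20 from it, 5′ to 3′ on the gene's strand, and capitals mark a tract of at least 5 bases that starts with C at the first transcribed base and goes on with C or T only.
RPL38: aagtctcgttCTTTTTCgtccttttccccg
RPL35A: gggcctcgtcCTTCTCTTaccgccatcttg
RPL22: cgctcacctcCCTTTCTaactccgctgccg
RPS9: gcttccgcgcCTCTTTCTCagtgaccgggt
RPS3: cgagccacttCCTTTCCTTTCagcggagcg
RPL14: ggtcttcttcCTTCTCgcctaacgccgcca
RPL39: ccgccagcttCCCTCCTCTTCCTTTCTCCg
RPL3: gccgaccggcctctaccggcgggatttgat
RPL10L: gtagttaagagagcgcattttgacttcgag
RPS27L: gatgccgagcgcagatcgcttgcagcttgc

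These windows are at chr17:74203668-74203697 (+) for RPL38, chr3:197950180-197950209 (+) for RPL35A and chr1:6199576-6199605 (-) for RPL22. RPS9 is at chr19:54200848-54200877 (+), RPS3 at chr11:75399508-75399537 (+), RPL14 at chr3:40457329-40457358 (+) and RPL39 at chrX:119791611-119791640 (-). RPL3 is at chr22:39319604-39319633 (-), RPL10L at chr14:46651762-46651791 (-) and RPS27L at chr15:63157458-63157487 (-). The first 7 carry a tract, the longest of them the 19 bases of RPL39. RPL3 starts with C but its pyrimidine run ends after 4 bases, and the paralogs RPL10L and RPS27L start with G.

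A TOP tract was found at the annotated start of 33 of the 47 members (70.2%), against 6.77% of the 9563 measured genes with a window. The tracts ran from 5 to 19 bases, with a median of 8. Over the longer window of 300 bases, 250 before the start and 50 after it, fixed words were searched on both strands. The ETS core CCGGAAG, bound by GABP, was in 18 members (38.3%) against 17.8% of measured genes. The GC box GGGCGG was in 27 (57.4%) against 69.8%, the E-box CACGTG of MYC and MAX in 3 (6.38%) against 11.96%, the YY1 core AAGATGG in 5 (10.6%) against 9.08%, and TATAAA in 4 (8.51%) against 11.6%. The genes with a window lay on 17 chromosomes, and 6 of them had over 1 annotated start. A gene was counted where any of its starts held the word, and windows are those of the start with the longest tract.

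The members were among the brightest genes of the arrays. Their median log2 level, the mean of 12 arrays, was 12.96, against 6.58 over all genes, and 50 of 55 were in the top 5% of genes. They made up 48 of the 158 genes above 12 (30.4%) and 27 of the 48 above 13, where the highest value of any probe set on any array was 13.75. RPS18 had the highest level, at 13.63, followed by RPL41 at 13.57, RPS23 at 13.53 and RPL39 at 13.52. RPL41 encodes the smallest protein of the ribosome. Since each level is the brightness of one probe set, levels of different genes are not read as relative abundance.

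Only 7 members were not above 12. Among them were the paralogs: RPL3L, the striated muscle counterpart of RPL3, had a level of 3.92, RPL10L, the testis counterpart of the X-linked RPL10, 5.97, RPL39L, the testis counterpart of RPL39, 8.16, and RPS27L, a p53 target paralog of RPS27, 11.26. RPLP2 had a level of 7.35 and RPL27A one of 8.32, and RPS9 lay just under the line, at 11.99. RPL3L was the only member below the 40th percentile of all genes, 5.747, which is taken here as dim.

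Arrays of one group lay close together for these genes. The median within-group standard deviation of a member was 0.03 on the log2 scale (0.0287), against 0.0347 for the other 110 genes above 12 and 0.0938 for all genes. Among members it ran from 0.0116 to 0.126, the latter for the stalk protein RPLP2. The model's median standard error for a difference was 0.0425 for members and 0.0738 for all genes.

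The cell line's mesenchymal markers were as bright as the label implies, but only some luminal and epithelial genes were dim. The mesenchymal markers VIM (13.2), CAV1 (12.5), AXL (12.5), ANXA1 (12.5) and CD44 (11.7) were bright. PGR (2.40), CDH1 (3.59) and GRB7 (4.63) were dim, as were the leukocyte gene PTPRC (2.97) and the endothelial gene CDH5 (3.03). ESR1 was at 6.19, ERBB2 at 7.92, EPCAM at 7.87 and KRT19 at 10.3. Control measures of the arrays were compared between groups by exact tests. The mean signal of the 18S rRNA control probe sets was lower than with DMSO by 0.57 with manassantin (two-sided exact permutation p = 0.3), by 0.39 with rotenone (exact p = 0.2) and by 0.31 with digoxin (exact p = 0.2), where 3 against 3 arrays can go no lower than 0.1. The 3′ minus 5′ difference of the dap control was 0.58 higher with manassantin (exact p = 0.2), 0.19 with rotenone (exact p = 0.7) and 0.25 with digoxin (exact p = 0.4). That of actin was 0.06 to 0.15 higher with the compounds (exact p = 0.5 to 0.8) and that of GAPDH 0.000767 to 0.0128 higher (exact p = 0.4 to 1). With the 18S signal as a covariate, 0 members passed with manassantin, 0 with rotenone and 11 with digoxin, of which 9 rose. The share of all genes called in that fit is not given here, so these counts are not read as a result about the members. The part of the dap control was not tested. The 3 comparisons with DMSO share the same DMSO arrays, so their values stand side by side and are not read as independent.

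With manassantin, 0 of the 55 members passed the test against DMSO (limma, Benjamini-Hochberg adjusted p under 0.05 over all genes), where 0.970% of all genes were called. Also 0 passed at an unadjusted p under 0.05, where 1896 of all 11963 genes did. The median difference of the members was 0.01 on the log2 scale (0.0114), against 0.00690 over all genes. The differences ran from -0.12 for RPL3L to 0.15 for RPLP2, and 38 of 55 were above 0. The smallest adjusted p was 0.398, for RPL24, a large subunit protein at the face that meets the small subunit. Its values were 12.92, 12.89 and 12.91 with DMSO and 12.84, 12.83 and 12.83 with manassantin, so that the groups did not overlap at a difference of -0.08 ± 0.04 (SE).

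The intervals give the sizes of difference in array signal that remain compatible with the manassantin values. They are not the smallest change that the adjusted test could detect. The 95% intervals of all 55 differences lay between -0.294 and 0.348, and 52 of them lay within 0.2 of 0 in either direction. The widest belonged to the dim RPL3L and RPLP2. The groups were apart, with every manassantin array above or below every DMSO array, for 12 members upwards and 4 downwards (29.1%), against 22.4% of all genes.

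Proteins with known roles outside the ribosome, or at its active sites, had small differences, none of them called. RPL11, which binds MDM2 when ribosome assembly fails, differed by 0.00 ± 0.04 (SE), and RPS6, the substrate of the S6 kinases, by -0.02 ± 0.04. RPL3, which lines the peptidyl transferase centre, differed by 0.08 ± 0.05 and RPS3, a protein of the mRNA entry channel, by 0.08 ± 0.04. The stalk proteins RPLP1 and RPLP2 differed by 0.01 ± 0.04 and 0.15 ± 0.09.

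**Figure D1:**
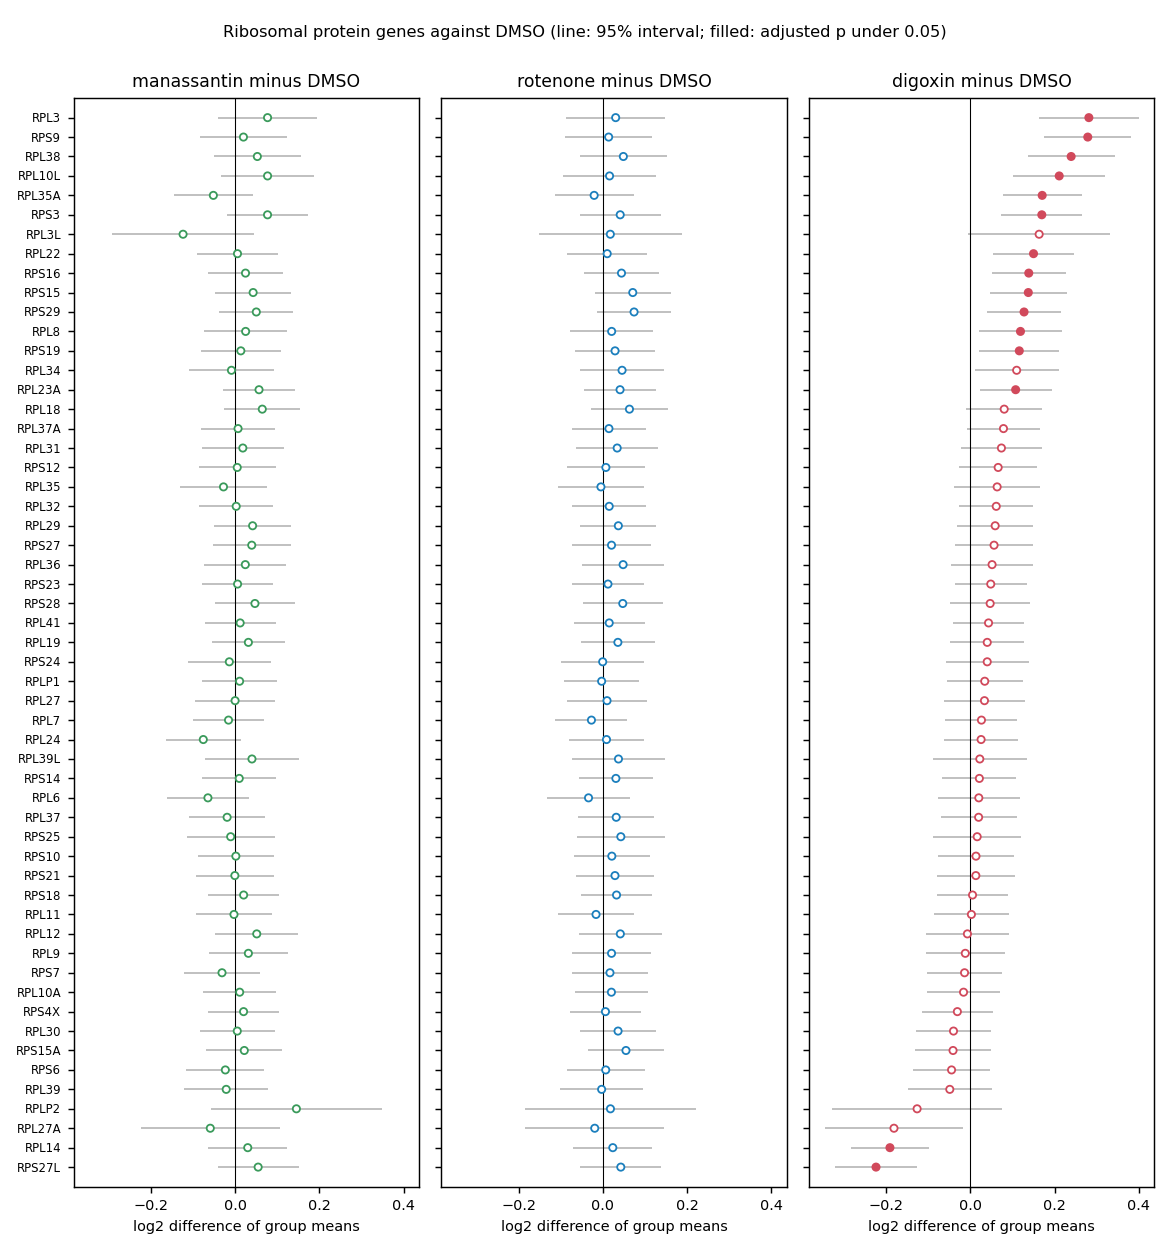
Differences of the 55 ribosomal protein genes from DMSO with manassantin, rotenone and digoxin, ordered by the digoxin difference. The x axis is the log2 difference of group means (3 arrays a group), lines are 95% intervals, and filled points have a limma adjusted p under 0.05: 0 for manassantin, 0 for rotenone and 15 for digoxin.

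With rotenone, again 0 of 55 members passed the test, where 6.94% of all genes were called. At an unadjusted p under 0.05 there were also 0, where 2545 of all 11963 genes passed. The median difference was 0.02 (0.0208), against 0.0124 over all genes, and 46 of 55 differences were above 0. All of them were small, from -0.03 for RPL6 to 0.07 for RPS29, a zinc-binding protein of the small subunit head. RPS29 read 13.08, 13.08 and 13.05 with DMSO and 13.13, 13.18 and 13.13 with rotenone. The groups did not overlap, and the adjusted p of its difference of 0.07 ± 0.04 (SE) was 0.330 (limma).

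The intervals with rotenone lay between -0.185 and 0.221, and those of 54 members lay within 0.2 of 0. The groups were apart for 14 members (25.5%), 14 upwards and 0 downwards. Of all 11963 genes, 3733 were apart (31.2%), 2017 upwards and 1716 downwards. Counted upwards alone, the members' share was thus the larger, a difference that was not tested. One member passed under another variance prior, RPS29, with an adjusted p of 0.0362 (limma with a trended robust prior). A further one, RPL31, passed with a fall when other probe sets of the gene were read, which is described with the probe sets.

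Digoxin changed more of them. Of the 55 members, 13 rose and 2 fell (27.3%), where 54.8% of all genes were called, 28.0% higher and 26.9% lower. On the values as deposited, the members' share was thus below that of all genes, and their changes were smaller. The median size of a member's difference was 0.05 (0.0515) on the log2 scale, against 0.228 for all genes. It was 0.127 for the other 110 genes above 12, of which 30 rose and 30 fell. No member changed by 1 or more. The median signed difference was 0.04 (0.0400), against 0.0651 over all genes and -0.00137 over the other genes above 12.

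**Figure D2:**
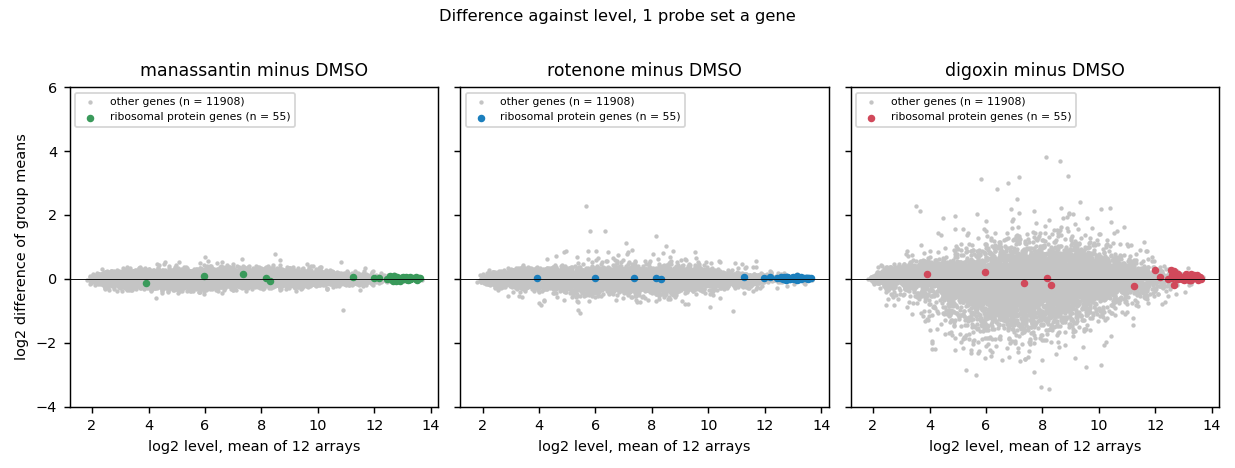
Log2 difference from DMSO (y axis) against log2 level, the mean of 12 arrays (x axis), for 11963 genes with 1 probe set each; ribosomal protein genes are coloured. With digoxin the members lie between -0.22 and 0.28, at the bright end of a cloud of genes that reaches from -3.44 to 3.81.

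The count with digoxin moved with the scale of the arrays. The gene median of each digoxin array lay between 6.409 and 6.446, and that of every other array between 6.600 and 6.659, while the members' median lay between 12.921 and 12.996 on all 12. With each array centred on its median, 36 of 55 members rose and 1 fell, in place of 13 and 2, where 64.3% of all genes were called. On that scale the members' share was not below that of all genes. Their median difference was 0.13 (0.126), against 0.1515 over all genes. RPL3L, RPL29, RPL41, RPLP1, RPS14 and RPS27, which did not pass as deposited, then rose. Centred instead on the other genes above 12, an alternative chosen after seeing the data, 17 rose and 2 fell. The share of all genes called on that scale is not given here, so this count is not read as a gain over the main test. The members' median was then 0.07 (0.0710), against 0.0961 over all genes. With a variance prior that depends on the level, 21 rose and 3 fell, where 55.6% of all genes were called. Which scale is right was not tested.

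Among large subunit proteins, 6 of 29 rose and 1 fell with digoxin (24.1%, where 54.8% of all genes were called). RPL3 had the largest rise of all members. Its log2 values were 12.48, 12.48 and 12.39 with DMSO and 12.70, 12.81 and 12.68 with digoxin. Every digoxin array was above every DMSO array, and the mean of RPL3 rose by 0.28 ± 0.05 (SE), a fold of 1.22 (adjusted p = 0.000813, limma). With rotenone it read 12.52, 12.44 and 12.47, and with manassantin 12.59, 12.52 and 12.46, both overlapping DMSO.

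RPL38, a small protein of the large subunit known from its part in translating Hox mRNAs in the mouse embryo, read 12.57, 12.61 and 12.59 with DMSO and 12.78, 12.84 and 12.86 with digoxin. The rise was 0.24 ± 0.05 (SE, adjusted p = 0.000976, limma), and the groups did not overlap, but the gene's other probe sets did not follow it. RPL35A, mutated in some families with Diamond-Blackfan anaemia, read 12.62, 12.64 and 12.62 with DMSO and 12.76, 12.80 and 12.83 with digoxin. It rose by 0.17 ± 0.04 (adjusted p = 0.00503) with no overlap between the groups.

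RPL22, an RNA-binding protein that the ribosome can do without, read 12.75, 12.78 and 12.76 with DMSO and 12.89, 12.97 and 12.87 with digoxin, a rise of 0.15 ± 0.04 (SE, adjusted p = 0.0117, limma). The groups were apart. RPL8 and RPL23A, which lies at the exit of the tunnel, also passed, with rises of 0.12 and 0.11; both were named after their values were seen. Some calls depended on single arrays. Of the 6 settings that leave out 1 array, RPL8, RPL23A and RPS19 kept theirs in 1 each, and RPS29 lost its own without the third DMSO array. In each setting 11 to 14 of the 15 calls were kept, with 0 turned in direction.

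RPL14 fell. It read 12.72, 12.70 and 12.71 with DMSO and 12.49, 12.56 and 12.51 with digoxin, a difference of -0.19 ± 0.04 (SE, adjusted p = 0.00237, limma). The highest digoxin array was below the lowest DMSO array. With rotenone it read 12.76, 12.70 and 12.74 and with manassantin 12.77, 12.71 and 12.74. With arrays centred on their medians, its difference of -0.11 no longer passed (adjusted p = 0.0586).

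Several large subunit proteins that are often discussed by name showed no called change with digoxin. RPL11 differed by 0.00 ± 0.04 (SE), RPL29 by 0.06, RPL41 by 0.04 and RPL39, at the wall of the exit tunnel, by -0.05. RPL27A, read by a dimmer probe set, differed by -0.18 and missed the threshold (adjusted p = 0.0599, limma). Its digoxin values spread from 8.09 to 8.34, and those with DMSO from 8.35 to 8.41.

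Among small subunit proteins, 6 of 20 rose with digoxin and 0 fell (30%, where 54.8% of all genes were called). RPS9, which takes part in decoding fidelity, had the smallest adjusted p of all members. It read 11.95, 11.92 and 11.86 with DMSO and 12.17, 12.20 and 12.19 with digoxin. The groups did not overlap, and their means differed by 0.28 ± 0.05 (SE), a fold of 1.21 (adjusted p = 0.000302, limma). Values with rotenone (11.96, 11.95 and 11.86) and manassantin (11.94, 11.96 and 11.88) overlapped those with DMSO.

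RPS3, which also takes part in DNA repair outside the ribosome, read 12.66, 12.64 and 12.60 with DMSO and 12.82, 12.80 and 12.80 with digoxin. It rose by 0.17 ± 0.04 (SE, adjusted p = 0.00612, limma) with no overlap. RPS16 rose by 0.14, RPS15 by 0.14, RPS29 by 0.13 and RPS19 by 0.12. RPS19, the gene most often mutated in Diamond-Blackfan anaemia, read 13.35, 13.31 and 13.35 with DMSO and 13.44, 13.41 and 13.50 with digoxin. Its adjusted p was 0.0387, and it was 0.0530 after quantile normalization.

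RPS6, the phosphorylated protein by which mTORC1 activity is often followed, read 13.21, 13.20 and 13.18 with DMSO and 13.17, 13.10 and 13.18 with digoxin. Its difference of -0.04 ± 0.04 (SE) did not pass. RPS14 differed by 0.02, RPS27 by 0.06 and the X-linked RPS4X by -0.03, also without passing. The stalk proteins did not pass either: RPLP1 differed by 0.03 ± 0.04, and RPLP2 by -0.13 ± 0.09, with digoxin values of 7.33, 6.96 and 7.35 of which only the second was low.

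The 4 paralogs did not move as one with digoxin. RPS27L, which p53 induces in many cells, had the largest fall of all members: it read 11.24, 11.33 and 11.30 with DMSO and 11.04, 11.11 and 11.05 with digoxin. The difference was -0.22 ± 0.04 (SE, adjusted p = 0.000959, limma), with no overlap, while its partner RPS27 differed by 0.06. RPL10L read 5.93, 5.85 and 5.89 with DMSO and 6.07, 6.13 and 6.11 with digoxin, a rise of 0.21 ± 0.05 (adjusted p = 0.00354) at a level close to the 40th percentile. RPL3L differed by 0.16 ± 0.08 (adjusted p = 0.0931), with digoxin values from 3.93 to 4.23, and RPL39L by 0.02.

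**Figure D3:**
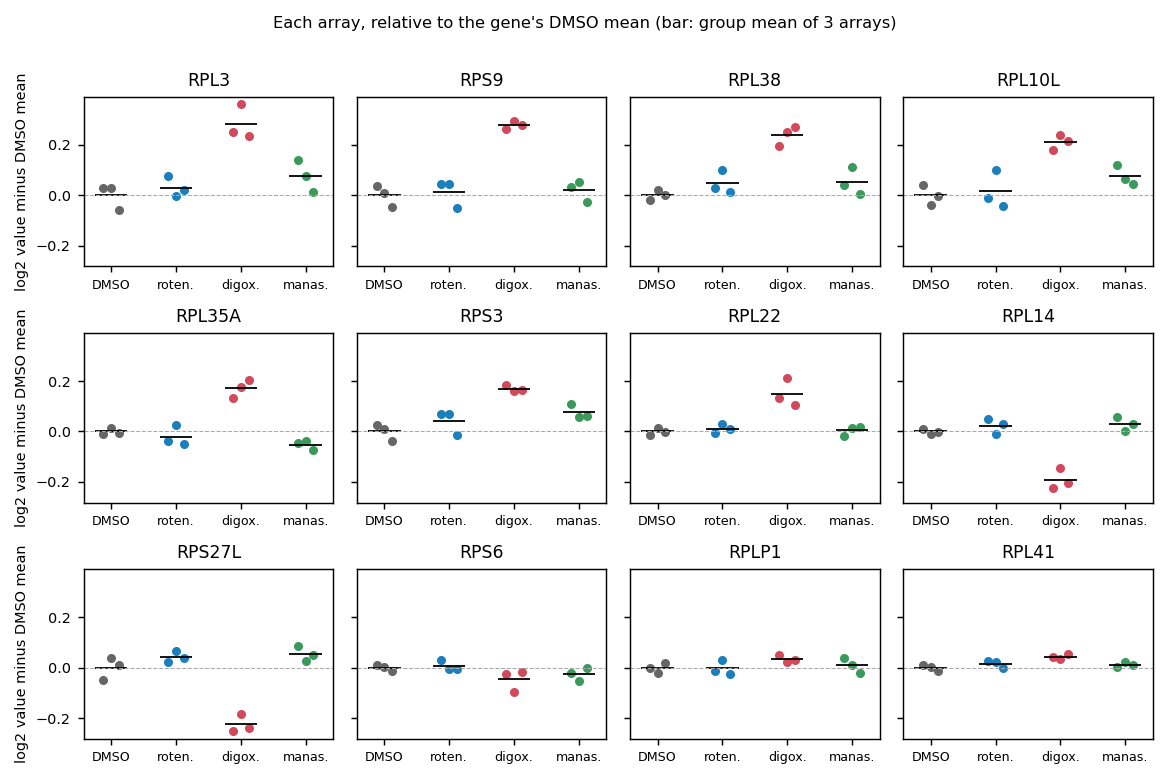
Log2 values of 12 named members on each of the 12 arrays, minus the gene's mean with DMSO (y axis); bars are group means of 3 arrays. With digoxin RPL3, RPS9, RPL38, RPL10L, RPL35A, RPS3 and RPL22 lie above all DMSO arrays and RPL14 and RPS27L below them, while RPS6, RPLP1 and RPL41 differ from DMSO by -0.04, 0.03 and 0.04.

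Members were also split by the TOP tract for the digoxin comparison. Of the 33 members with a tract 7 rose and 1 fell, with a median difference of 0.05 (0.0483). Of the 14 without one at an annotated start 4 rose and 1 fell, with a median of 0.04 (0.0367). A pyrimidine run that begins at another base than an annotated start was not counted, and other start positions were not tested. Of all genes, 54.8% were called, 28.0% higher and 26.9% lower, so both classes had a smaller share called. Across the 33, tract length and digoxin difference had a Spearman correlation of -0.0165, a description over genes measured on the same arrays. Among the printed windows, RPS9 and RPL38, with tracts, rose about as far as RPL3, whose run ends after 4 bases, and RPL14, with a tract, fell. RPL38 rose on its brightest probe set only.

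The compounds were also set against each other. Between manassantin and rotenone, 0 of 55 members passed the test, where 8.47% of all genes were called. An unadjusted p under 0.05 was found for 0 members, and for 2805 of all 11963 genes. The median difference was -0.01 (-0.0100), and the 95% intervals lay between -0.311 and 0.330, so equality was not shown. RPL24 came closest, lower with manassantin by 0.08 (-0.08 ± 0.04, SE, adjusted p = 0.236, limma), and it passed under the trended robust prior (adjusted p = 0.0200).

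Between manassantin and digoxin, 3 members were higher and 10 lower with manassantin (23.6%), where 56.7% of all genes were called, 28.1% higher and 28.6% lower. RPS27L (0.28), RPLP2 (0.27) and RPL14 (0.22) were higher. The value for RPLP2 depended on its 1 low digoxin array and on the processing: without that array it was 0.15, after quantile normalization 0.17, and on a probe set without suffix -0.12, none of which passed. RPL3L (-0.29), RPS9 (-0.26), RPL35A (-0.22), RPL3 (-0.21) and RPL38 (-0.19) had the largest differences the other way. RPL3L read 3.85, 3.72 and 3.77 with manassantin against 4.23, 3.93 and 4.04 with digoxin, with no overlap (adjusted p = 0.00740, limma), but its difference was -0.18 and did not pass after quantile normalization (adjusted p = 0.0712). Without the third manassantin array 8 members passed in all, where 52.0% of all genes did, and RPL10L, RPL24, RPL34, RPLP2 and RPS16 were lost. RPL22 lost its call without the second digoxin array, as did RPL10L, RPL24 and RPLP2. With arrays centred on their medians, 2 of the 55 were higher and 37 lower, where 65.7% of all genes were called.

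Between rotenone and digoxin, 2 members were higher and 7 lower with rotenone (16.4%), where 50.5% of all genes were called, 26.3% higher and 24.2% lower. RPS27L (0.27) and RPL14 (0.21) were higher. RPS9 (-0.27), RPL3 (-0.25), RPL10L (-0.20), RPL35A (-0.19) and RPL38 (-0.19) had the largest differences the other way. With arrays centred on their medians, 2 were higher and 27 lower, where 59.6% of all genes were called. RPL22 or RPS3 lost its call without some single arrays of either group. In the 3 comparisons with digoxin, which share the digoxin arrays, RPL3, RPL10L, RPL14, RPL22, RPL35A, RPL38, RPS9 and RPS27L were called each time. On their dimmest probe sets above the 40th percentile, RPL35A and RPL38 turned direction in all 3 and did not pass.

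Many ribosomal protein genes have processed pseudogenes and near-identical copies, and probe sets can take signal from them. Affymetrix marks a probe set that may cross-hybridise with the suffix x and one that matches several transcripts with the suffix s. Of the probe sets read for the members, 15 carried x (27.3%, against 7.19% of all genes) and 28 carried s (50.9%, against 33.9%). With digoxin 5 of the 15 members read by an x probe set rose and 1 fell (40%), and 8 of the other 40 rose and 1 fell (22.5%), where 54.8% of all genes were called. Members had 93 probe sets with a single symbol, and 23 members had over 1.

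The probe sets of a gene moved together for some members. All 5 probe sets of RPL22 rose with digoxin, by 0.15 to 0.29, both of RPS9, by 0.28 and 0.23, and both of RPS16, by 0.14 each. All 3 of RPL14 fell, by 0.19, 0.22 and 0.37 (limma over all 22215 probe sets that are not controls). The dimmest of these, at a level of 7.20, read 7.41, 7.24 and 7.21 with DMSO and 6.99, 6.89 and 6.87 with digoxin. In all, 14 of the 23 genes had every probe set on the same side of 0, and 11 had at least 1 called.

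RPL38 was the 1 gene called in both directions. Its brightest probe set, an x set, rose by 0.24, while an s set at a level of 9.96 fell by 0.22 (adjusted p = 0.0167, limma), reading 9.99, 10.06 and 9.98 with DMSO and 9.93, 9.74 and 9.70 with digoxin. The third, an x set at 9.79, differed by -0.09 and did not pass. RPL35A was called on its brightest probe set alone: another, at a level of 5.94, differed by -0.02. The direction for RPL38 therefore depends on the probe set read.

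RPL31, a large subunit protein at the tunnel exit, was chosen after its values were seen. Its brightest probe set, an x set at 13.12, differed with digoxin by 0.07 ± 0.05 (SE) and did not pass. A probe set without suffix, at a level of 7.79, read 8.16, 8.33 and 8.17 with DMSO, 6.9092, 6.9999 and 6.9552 with digoxin, 7.89, 7.83 and 7.96 with rotenone and 8.11, 8.06 and 8.11 with manassantin. It fell by 1.27 with digoxin (adjusted p = 7.82e-09, limma) and by 0.33 with rotenone (adjusted p = 0.00965), with no overlap with DMSO in either, and differed by -0.12 with manassantin (adjusted p = 0.386). An s set at 7.63 fell by 0.36 with rotenone (adjusted p = 0.0361) and differed by -0.02 with digoxin. Which transcripts the dimmer probe sets read was not tested.

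**Figure D4:**
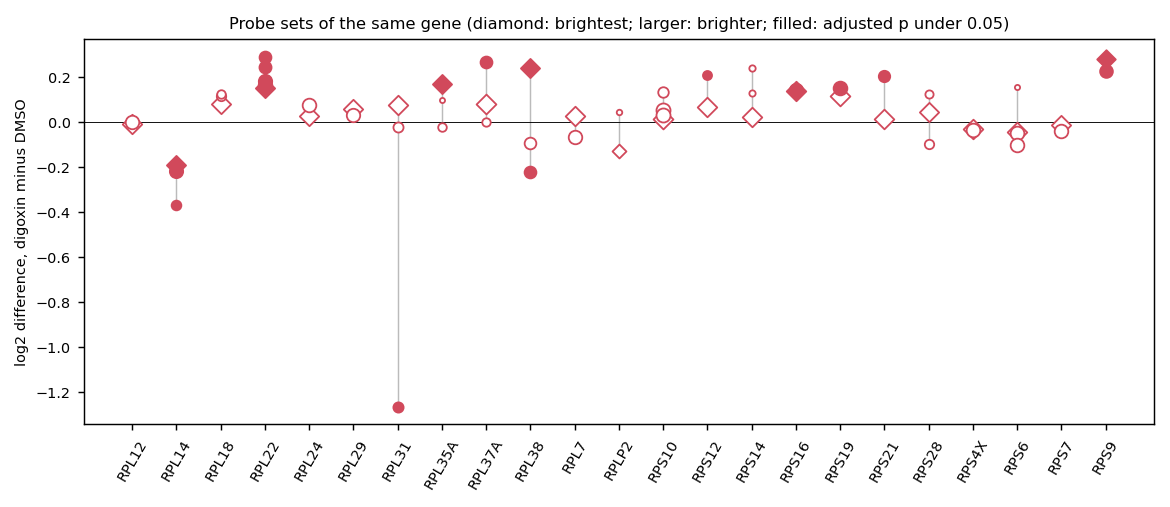
Log2 difference between digoxin and DMSO (y axis) for each single-symbol probe set of the 23 members that have several; diamonds are the brightest probe set, marker size grows with level, and filled markers have a limma adjusted p under 0.05 over all probe sets. RPL14 lies below 0 and RPL22 and RPS9 above it with every probe set, RPL38 has filled markers on both sides, and 1 dim probe set of RPL31 lies at -1.27.

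Counts were also made over probe sets in place of genes. Of the 93 single-symbol probe sets, 20 rose and 6 fell with digoxin (28.0%), against 49.3% of all 22215. Of 57 further probe sets that name a ribosomal protein gene beside other genes, and from which no gene is named, 16 rose and 5 fell (36.8%). With manassantin 0 of either kind passed, and with rotenone 2 of the 93 fell, both of RPL31, and 0 of the 57 passed.

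Some ribosomal proteins and paralogs have symbols outside the rule. Of 5 measured, 3 rose with digoxin and 0 fell (60%, where 54.8% of all genes were called): RPL26L1 by 0.32, RPL36AL by 0.24 and FAU, the precursor of the small subunit protein eS30, by 0.17. FAU read 12.44, 12.44 and 12.43 with DMSO and 12.59, 12.65 and 12.60 with digoxin, with no overlap. With manassantin and with rotenone 0 of the 5 passed.

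Other mRNAs known for a TOP tract, mostly translation factors, went in both directions with digoxin. Of 17 measured, 4 rose and 4 fell (47.1%, where 54.8% of all genes were called), with a median of 0.01 (0.00695) against 0.0651 over all genes. HNRNPA1, an RNA-binding protein, rose by 0.44 and BTF3, a subunit of the nascent-chain complex NAC, by 0.23. The initiation factors EIF4B and EIF3L fell by 0.37 and 0.36. With manassantin and with rotenone 0 of 17 passed.

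Among regulators of TOP mRNAs and components of mTORC1 signalling, 5 of 18 rose and 8 fell with digoxin (72.2%, where 54.8% of all genes were called). DDIT4, an inhibitor of mTORC1 induced by hypoxia and stress, read 10.37, 10.43 and 10.20 with DMSO and 7.88, 7.45 and 7.36 with digoxin. It fell by 2.77 ± 0.11 (SE, adjusted p = 2.27e-09, limma), and every digoxin array was below every other array. With rotenone it read 9.90, 9.87 and 9.84, a fall of 0.46 (adjusted p = 0.0319), and with manassantin 10.52, 10.36 and 10.38, which overlapped DMSO. TIA1, a translational repressor, fell by 1.58 with digoxin and TSC2, an mTORC1 inhibitor, by 0.56, while CNBP, which binds TOP mRNAs, rose by 0.51. Otherwise 0 of the 18 passed with rotenone and 0 with manassantin.

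Of 17 chaperones, export and quality control factors of ribosomal proteins, 2 rose and 6 fell with digoxin (47.1%, where 54.8% of all genes were called). HEATR3, which carries RPL5 and RPL11 into the nucleus, fell by 1.75 and PDCD2, the chaperone of RPS2, by 1.52. UBE2O, which marks unassembled ribosomal proteins for degradation, fell by 0.65, and XPO1, the exportin that carries both subunits out of the nucleus, by 0.53. HEATR3 read 7.52, 7.49 and 7.63 with DMSO and 5.92, 5.79 and 5.70 with digoxin, with no overlap. With manassantin and with rotenone 0 of 17 passed.

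Of 11 transcription factors known at ribosomal protein promoters, 6 rose and 1 fell with digoxin (63.6%, where 54.8% of all genes were called). TBPL1, a relative of the TATA-binding protein that serves ribosomal protein promoters in flies, rose by 0.58, E2F1 by 0.56, NRF1 by 0.43 and GABPA, which binds the ETS core, by 0.30. GABPA was dim, with a mean of 5.43 with DMSO and 5.73 with digoxin. MAX, the partner of MYC, was the 1 that fell, by 0.22. With rotenone MYC rose by 0.17 (adjusted p = 0.0470, limma) and E2F1 fell by 0.54 (adjusted p = 0.000920). With manassantin 0 of 11 passed.

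Of 12 S6 kinases and genes of the p53 branch, 4 rose and 5 fell with digoxin (75%, where 54.8% of all genes were called). RPS6KA2, a kinase of the RSK family, fell by 1.29, MDM2, the ubiquitin ligase of p53 that RPL5 and RPL11 inhibit, by 1.08, and the p53 target TP53I3 by 0.71. MDM2 was dim in both groups, with a mean of 4.985 with DMSO and 3.904 with digoxin. CDKN1A, the cell cycle inhibitor p21, rose by 0.94. With rotenone RPS6KA5 fell by 0.43 (adjusted p = 0.00515, limma), and with manassantin 0 of 12 passed. RPS27L, the member that p53 can induce, fell by 0.22 in the same arrays. MDA-MB-231 carries a mutant p53, and the part of p53 in these values was not tested.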

How the data were processed

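The authors deposited 1 value a probe set and array, read here as log2 intensities because they ran from 1.655 to 13.75. How background, summarisation and normalization were handled is not stated in the sources used here. Of 22277 probe sets, 62 were controls. A platform annotation gave 1 symbol for 19064, several for 1043 and none for 2108, and 19052 of the first kind matched a current gene record. Each gene was read from its brightest single-symbol probe set by mean over the 12 arrays. The test was limma 3.58.1 (R 4.3.3, lmFit and eBayes, group only, all 12 arrays, 8 residual degrees of freedom, prior worth 3.68), with Benjamini-Hochberg adjustment over 11963 genes within a comparison. Genes under 0.05 are called. The script was tested on simulated data.

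The members and gene lists were chosen with earlier results of these data known. Named genes were up to 10 called rises and 10 falls against DMSO, up to 5 and 5 between compounds, a fixed set of well-known members and the paralogs with their partners, and up to 4 called genes a list. RPL6, RPL8, RPL23A, RPL24, RPL27A, RPL31, RPL34, RPS18, RPS23 and MAX were named after their values were seen. Same-numbered arrays met the bar for pairing, every correlation of their deviations above 0.1, only for manassantin and rotenone (0.107 to 0.362); for digoxin and DMSO they were 0.0795 to 0.158. The number of arrays limits precision.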

Additional observations from a re-analysis of the deposited data

How the results depend on the processing

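Alternatives changed the scale, the probe sets, the prior or the arrays. For digoxin against DMSO, the main count of 15 called members became 37 with median centring, 24 with a trended robust prior and 8 with only probe sets without an s or x suffix, which 24 members have. Of all genes, 64.3%, 55.6% and 50.5% were called in those settings, against 54.8% in the main test. Leaving out 1 array gave 11 to 15 called members, and the shares of all genes in those fits are not given here. For manassantin against digoxin, the count of 13 became 39 with median centring, 25 with the trended prior, 7 without suffixed probe sets, 7 with only the 6 arrays compared, 20 centred on other genes above 12, and 8 to 12 with 1 array left out. Of all genes, 65.7% were called with median centring, 57.3% with the trended prior and 51.9% without suffixed probe sets. The share was 50.2% with only the 6 arrays and 59.25% centred on other genes above 12, against 56.7% in the main test. With 1 array left out it is given only for the fit without the third manassantin array, at 52.0%. For rotenone against digoxin, the count of 9 became 29 with median centring and 20 with the trended prior, and was 8 to 9 with 1 array left out. Of all genes, 59.6% and 51.25% were called with median centring and with the trended prior, against 50.5% in the main test. The shares with 1 array left out are not given here. For rotenone against DMSO it was 1 with the mean of probe sets, without suffixed probe sets, with the dimmest probe set and with the trended prior; for manassantin against rotenone it was 1 with the trended prior. The median differences for digoxin against DMSO, manassantin against digoxin and rotenone against digoxin became 0.126, -0.124 and -0.108 with median centring, 0.0883, -0.0939 and -0.0756 without suffixed probe sets, and 0.0710, -0.0659 and -0.0571 centred on other genes above 12. Over all genes of the same settings the medians were 0.1515, -0.149 and -0.135, then 0.0712, -0.0673 and -0.0591, then 0.0961, -0.0914 and -0.0845.

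RPL38 reversed with the mean of its probe sets, to -0.0245, 0.0653 and 0.0722 in those 3 comparisons, and with its dimmest, to -0.0932, 0.176 and 0.154. RPL35A reversed with its dimmest, to -0.0198, 0.157 and 0.131, and RPLP2 to -0.116 between manassantin and digoxin without suffixed probe sets. These settings read other probe sets; why those differ was not tested. With the replicate number as a block, member counts were 0, 0 and 15 against DMSO for manassantin, rotenone and digoxin, and 0, 13 and 9 between compounds, so the block moved no member count. The shares of all genes called with the block are not given here. Every array correlated best with its own number in 3 of 6 comparisons. Over the named genes and the settings other than leaving out 1 array, 885 values kept their direction and side of the threshold, 17 kept their direction but no longer passed, 8 newly passed, and the 10 reversed values given above did not pass either. The centring on other genes above 12, the fit of every probe set and the counts of shared probe sets were chosen after seeing the data.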
